A study of Mus musculus with 5 samples.

Results

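A set of 8 genes of cholesterol synthesis and its control was followed through the mouse ileal epithelium: Hmgcs1, Sqle, Idi1, Fdps, Lss, Cyp51, Insig1 and Srebf2. They were taken by symbol, and all 8 were found among the 27998 genes of the deposited matrices. The measurements were droplet single-cell RNA profiles of ileal epithelial cells (distal small intestine) of mice of the C57BL/6 background, aged 8 to 12 weeks. Mice of the resection group (2 libraries, resection 1 and 2) underwent small bowel resection, in which part of the small intestine is cut out, and those of the sham group (3 libraries, sham 1, 2 and 3) had sham surgery. The labels give no genetic change, time after surgery or number of mice per library, so p-values measure the spread between these libraries, which may be technical in part.

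Cells make cholesterol from acetyl-CoA through the mevalonate pathway. Srebf2 encodes SREBP-2, a transcription factor held in the endoplasmic reticulum membrane while sterols are plentiful; INSIG proteins retain it there, and when sterols run low it is cut free and switches on the genes of the pathway and of lipoprotein uptake. The small intestine is a major site of cholesterol synthesis and also takes up dietary and biliary cholesterol, and absorbed sterol acts on the same switch. Enterocytes are born in crypts, mature as they move onto the villus and are shed at its tip.

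SREBP-2 acts through a sterol regulatory element, a short motif that often lies beside boxes for NF-Y and Sp1. The RefSeq promoters of the build GRCm38.p6, which run from 250 bases before to 50 bases after each gene's start, hold 6 of the 8 genes (Hmgcs1, Idi1, Lss, Cyp51, Insig1 and Srebf2). The promoters of Hmgcs1 and Srebf2 are shown because they were the ones with a match to the element. The first lies at chr13:119690101-119690400 on the plus strand, and the second at chr15:82147019-82147318 on the plus strand. Capitals mark the element, written 5′ to 3′.
Hmgcs1: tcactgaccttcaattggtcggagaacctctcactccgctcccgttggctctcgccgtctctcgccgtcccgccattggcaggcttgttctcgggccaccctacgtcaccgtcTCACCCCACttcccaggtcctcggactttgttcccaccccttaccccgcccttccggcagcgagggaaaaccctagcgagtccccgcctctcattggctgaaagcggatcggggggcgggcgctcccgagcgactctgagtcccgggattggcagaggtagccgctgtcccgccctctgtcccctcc
Srebf2: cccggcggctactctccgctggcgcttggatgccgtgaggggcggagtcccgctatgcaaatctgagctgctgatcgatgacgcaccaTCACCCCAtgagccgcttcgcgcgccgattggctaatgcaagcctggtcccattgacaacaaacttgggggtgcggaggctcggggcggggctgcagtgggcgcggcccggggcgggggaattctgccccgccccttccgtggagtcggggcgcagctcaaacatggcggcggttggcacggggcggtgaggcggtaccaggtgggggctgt
Searched on both strands, TCACNCCAC occurred in 1.24% of 32817 promoters and, of these 6 genes, in that of Hmgcs1, beginning 137 bases before the start. The shorter form TCACNCCA, chosen after the Srebf2 sequence had been seen and contained in the longer one, occurred in 4.36% of promoters and in those of Hmgcs1 and Srebf2. In Srebf2 it began 162 bases before the start. The NF-Y box CCAAT was present in all 6 and in 37.4% of promoters, and the Sp1 box GGGCGG in all 6 and in 35.6%. A match is a description of letters, not evidence of binding. Only exact letters were searched, so a promoter without a match may still hold a variant of the element.

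The libraries held 1402 to 7233 cells and 11749028 to 41281731 unique molecular identifiers (UMIs), and 18235 of 19404 cells were kept. Levels below are counts per 1000000 UMIs (CPM) of the summed UMIs of a class in a library, scaled so that the bulk of genes is comparable between sums (scaled CPM). In these 3' tag counts a level is compared between samples of 1 gene, not between genes. Cell classes were rebuilt by clustering without the genes studied here and named from markers: crypt progenitor-like cells (68 to 584 per library), immature enterocyte-like cells (251 to 958) and enterocyte-like cells (692 to 4491), beside goblet-like and Paneth-like cells. Median depth was 5415.5 to 7279 UMIs per crypt progenitor-like cell and 4122 to 5883.5 per enterocyte-like cell. Sham 1 and resection 1 stood apart from sham 2, sham 3 and resection 2. Enterocyte-like cells of 2 libraries overlapped in 13.0% to 37.7% of their cluster membership within these sets, and in 2.26% to 3.73% across them. The median mitochondrial share was 13.7% and 11.7% of UMIs in the first set and 7.24% to 9.19% in the second. No label names a batch, so the surgery comparisons of the 8 genes within a class are also given inside both sets. Pairs of libraries shared 6 to 47 cell barcodes.

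All 8 genes were higher in enterocyte-like than in crypt progenitor-like cells. The mean ratio over libraries ran from 1.49-fold (Idi1) and 1.54-fold (Srebf2) to 3.06-fold (Sqle), 3.11-fold (Cyp51) and 3.75-fold (Hmgcs1). Summed over the 8 genes, the level was 386, 364 and 247 scaled CPM in the crypt progenitor-like cells of sham 1, 2 and 3, and 476 and 276 in those of resection 1 and 2. In immature enterocyte-like cells it was 577, 507, 510, 477 and 368 in the same order, and in enterocyte-like cells 1109, 870, 923, 896 and 703. The crypt and enterocyte values did not overlap, and the immature values lay between them in each library, although in resection 1 the crypt and immature sums were nearly equal. Such sums are unweighted and lean most on Hmgcs1. Its mean over all classes and libraries was 219 scaled CPM, the highest of the 8, and that of Lss was 9.30, the lowest.

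**Figure D1:**
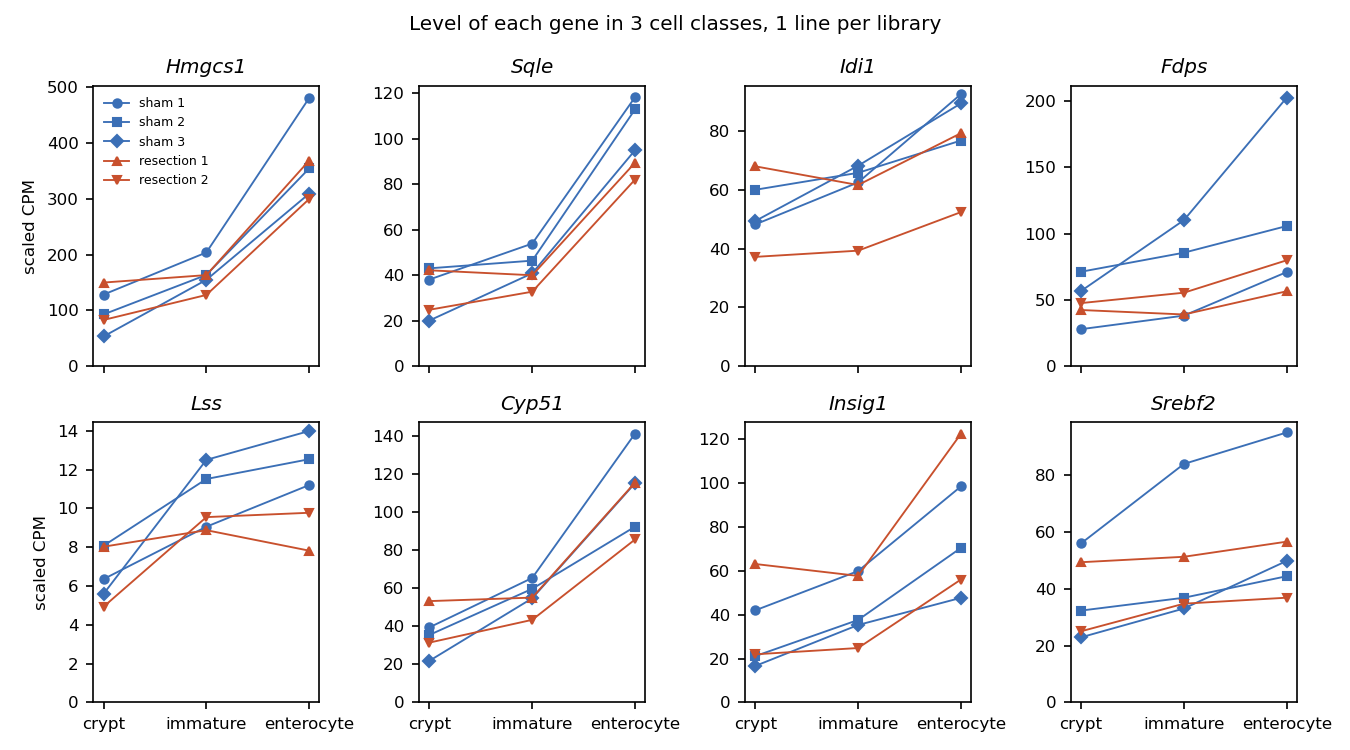
Scaled CPM of each of the 8 genes (1 panel per gene, linear axis from 0) in crypt progenitor-like, immature enterocyte-like and enterocyte-like cells, with 1 line per library (blue sham, red resection). Lines end higher in enterocyte-like than in crypt progenitor-like cells, except that of resection 1 for Lss, and rise most for Hmgcs1, Sqle and Cyp51. From crypt to immature cells the resection 1 line falls slightly for Sqle, Idi1, Fdps and Insig1.

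Among the enzymes, Hmgcs1 (HMG-CoA synthase, an early enzyme of the mevalonate pathway) measured 128, 92.8 and 53.3 scaled CPM in the crypt progenitor-like cells of the 3 sham libraries, and 150 and 82.9 in those of the resection libraries. In enterocyte-like cells it measured 481, 355, 309, 369 and 300. Every enterocyte value was above every crypt value, and the mean ratio over libraries was 3.75-fold (log2 1.91 ± 0.44, SD, n = 5). Most of the spread lay in the first step: from crypt to immature cells the log2 ratio was 0.75 ± 0.51, and from immature to enterocyte-like cells 1.15 ± 0.10.

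Sqle, squalene epoxidase, the first oxygen-requiring step, stood at 38.1, 43.1, 20.1, 42.2 and 24.8 scaled CPM in crypt progenitor-like cells (sham 1 to 3, then resection 1 and 2) and at 118, 113, 95.0, 89.5 and 82.1 in enterocyte-like cells. The groups did not overlap, and the step from immature to enterocyte-like cells was again tight, at log2 1.22 ± 0.08. Cyp51, the lanosterol 14-alpha-demethylase, stood at 39.4, 35.4, 21.8, 53.2 and 31.4 in crypt progenitor-like cells and at 141, 92.3, 115, 115 and 85.6 in enterocyte-like cells, a mean ratio of 3.11-fold without overlap.

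Idi1 and Fdps, enzymes of the isoprenoid steps, changed less than Hmgcs1, Sqle and Cyp51. Idi1, which interconverts the isopentenyl and dimethylallyl diphosphate units, measured 48.3, 60.1, 49.4, 68.1 and 37.2 scaled CPM in crypt progenitor-like cells and 92.7, 76.9, 89.5, 79.4 and 52.5 in enterocyte-like cells. The ranges overlapped across libraries, although Idi1 was higher in the enterocyte-like cells of 5 of 5 libraries (1.49-fold on average). Fdps, farnesyl diphosphate synthase, measured 28.0, 71.3, 56.8, 42.4 and 47.6 in crypt progenitor-like cells and 71.1, 106, 203, 56.6 and 80.0 in enterocyte-like cells. It too was higher in 5 of 5 libraries, by 1.98-fold, with the highest enterocyte value in sham 3.

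Lss, lanosterol synthase, which closes the sterol rings, rested on few molecules: 5 to 35 UMIs per library in crypt progenitor-like cells and 55 to 224 in enterocyte-like cells. Its level was 6.35, 8.07, 5.59, 8.02 and 4.93 scaled CPM in crypt progenitor-like cells and 11.2, 12.5, 14.0, 7.82 and 9.77 in enterocyte-like cells. It was higher in the enterocyte-like cells of 4 of 5 libraries, resection 1 being the exception. The mean ratio was 1.68-fold, below that of Fdps. From immature to enterocyte-like cells the log2 ratio was 0.09 ± 0.18, within the spread between libraries.

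Of the regulators, Insig1, the retention protein and itself an SREBP target, measured 41.9, 21.1, 16.6, 63.0 and 21.9 scaled CPM in crypt progenitor-like cells and 98.4, 70.4, 47.6, 122 and 56.0 in enterocyte-like cells, higher in 5 of 5 libraries (2.57-fold) with overlapping ranges. Its values in sham 1 and resection 1 exceeded those of the other 3 libraries in both classes. Srebf2 measured 55.9, 32.3, 22.9, 49.3 and 25.0 in crypt progenitor-like cells and 94.9, 44.4, 49.8, 56.5 and 36.8 in enterocyte-like cells. The ranges overlapped, and the ratio was 1.54-fold, in the same direction in 5 of 5 libraries.

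With the library as a block, edgeR's quasi-likelihood test called all 8 genes lower in crypt progenitor-like cells. The call rule was a Benjamini-Hochberg adjusted p under 0.05 over 10600 genes. This contrast called 80.3% of all genes tested, 40.7% lower and 39.6% higher in crypt progenitor-like cells, so a call alone does not set these genes apart. The log2 fold changes (crypt relative to enterocyte) were -1.98 ± 0.13 (SE) for Hmgcs1, -1.69 ± 0.13 for Sqle, -1.70 ± 0.15 for Cyp51 and -1.42 ± 0.11 for Insig1. They were -1.04 ± 0.17 for Fdps, -0.84 ± 0.19 for Lss, -0.69 ± 0.12 for Srebf2 and -0.63 ± 0.11 for Idi1. Their median was -1.23, against -0.02 over all genes. Adjusted p ran from 3.811e-09 (Hmgcs1) to 0.0008946 (Lss). In sham 1 and resection 1 alone 7 of 8 were called, Lss having -0.24 and an adjusted p of 0.5312, while in sham 2, sham 3 and resection 2 alone all 8 were. Without the library block 7 of 8 were called, with an adjusted p of 0.05441 for Srebf2.

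The other cholesterol synthesis genes gave much the same picture: 13 of 15 were lower in crypt progenitor-like cells, 1 was higher and Acat2 did not pass (edgeR quasi-likelihood test, adjusted). Sc5d and Hsd17b7, both late enzymes of the sterol part of the pathway, had log2 fold changes of -2.25 ± 0.11 and -1.69 ± 0.10. The exception was Lbr, a nuclear envelope protein that also carries sterol reductase activity, at 3.20 ± 0.15.

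Genes that process SREBPs or take up cholesterol were divided, with 3 lower in crypt progenitor-like cells, 3 higher and 2 of 8 not called. Insig2, the second INSIG gene (-1.75 ± 0.13), and Stard4, a sterol carrier (-1.31 ± 0.11), were among those lower there. Tmem97, a sterol-responsive membrane protein, was higher (1.32 ± 0.11), as were Scap, the SREBP escort (0.74 ± 0.16), and Mbtps2, a protease that frees SREBPs (0.67 ± 0.16, with an adjusted p of up to 0.05174 over the alternatives). Fatty acid synthesis genes, the classic Srebf1 targets, ran the other way in part. Of 7 tested, Fasn (1.37 ± 0.13), Acly (0.86 ± 0.10) and Acaca (0.88 ± 0.17) were higher in crypt progenitor-like cells and Elovl6 was lower (-0.44 ± 0.17), although its adjusted p reached 0.865 over the alternatives. Genes of absorption, esterification and efflux were lower in crypt progenitor-like cells in 8 of 8 tested. Npc1l1, the apical cholesterol importer, had -3.24 ± 0.11 and Soat2, which esterifies absorbed cholesterol, -2.76 ± 0.11.

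Within the enterocyte-like class, cells of each library were ranked by a score of villus tip genes minus villus base genes and divided into 4 ranges of equal cell number (range 1 nearest the base). These are ranges of a score, not cell types. They were cut within each library, so the same range covers different scores in different libraries. Range 4 began at a score of -1.78, -1.97 and -2.10 in sham 1, 2 and 3, and at -1.27 and -1.42 in resection 1 and 2. The summed level of the 8 genes went from 1141 scaled CPM in range 1 to 1001 in range 4 in sham 1, from 825 to 894 in sham 2, from 850 to 975 in sham 3 and from 831 to 991 in resection 1. In resection 2 it went from 802 through 844 and 650 to 410. Range 4 thus lay between 894 and 1001 in the first 4 libraries and at 410 in resection 2, which dropped in its upper ranges.

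**Figure D2:**
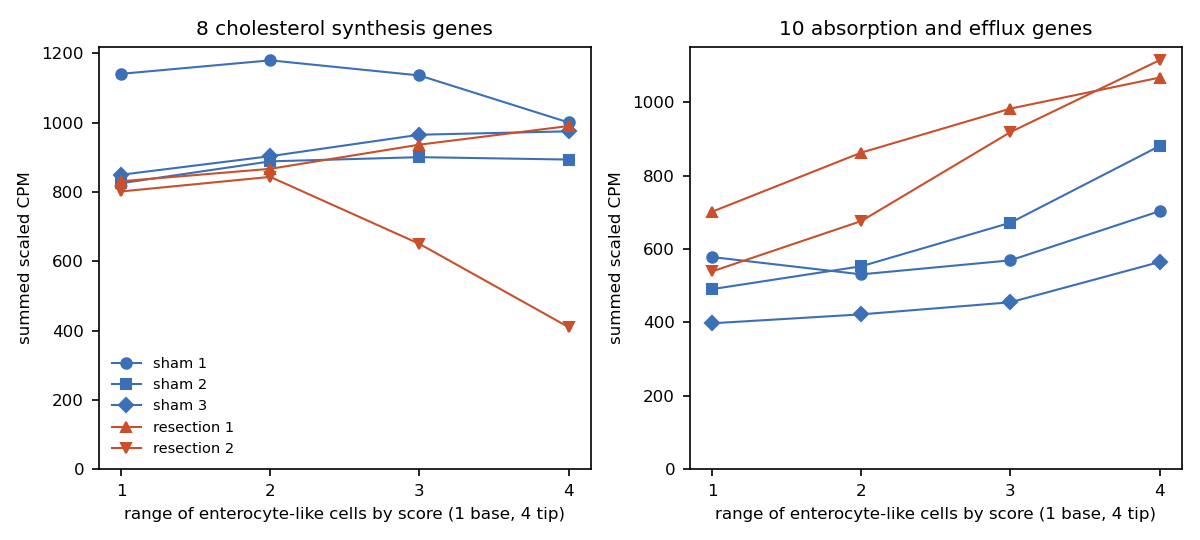
Summed scaled CPM (linear axis from 0) of the 8 cholesterol synthesis genes (left) and of 10 absorption and efflux genes (right) in the 4 score ranges of enterocyte-like cells, 1 line per library (blue sham, red resection). On the left resection 2 drops to 410 in range 4 while the other 4 libraries lie between 894 and 1001; on the right all 5 libraries end higher than they began.

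The drop in resection 2 was seen in each of the 8 genes. Between ranges 1 and 4 of that library Hmgcs1 went from 314 to 198 scaled CPM, Sqle from 95.2 to 46.7, Fdps from 107 to 32.1, Idi1 from 72.8 to 23.3 and Insig1 from 56.9 to 35.1. In the other 4 libraries Hmgcs1 was higher in range 4 than in range 1, with log2 ratios of 0.02 to 0.79. Idi1 and Fdps were lower in range 4 than in range 1 in 5 of 5 libraries, with mean log2 ratios of -0.57 ± 0.62 and -0.74 ± 0.58 (SD). These 2 were the genes with 1 direction in every library, and the SD includes the larger fall of resection 2.

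Most of range 4 in resection 2 came from 1 cluster. It held 1080 of the 1122 cells there and was led by Ada, Fabp2, Cyp3a11, Apoc3 and Apoa4. Of these, Ada is itself a tip gene of the score. In that cluster the 8 genes summed to 479 scaled CPM in resection 2 and 510 in the 127 cells of sham 2, the other library with at least 100 cells in it. In the cluster led by Areg and Acta1 the sum was 884 in resection 2, 956 in sham 2 and 882 in sham 3. In that led by 1700011H14Rik and Fabp6 it was 816, 747 and 833 in the same order. Sham 2 cells of the cluster led by H2-Aa gave 920. The villus tip genes help set the score, so their rise over the ranges is built in. They went from 342 to 1830 scaled CPM in resection 2 and from 485 to 2138 in resection 1. The summed level of the 8 genes did not drop in resection 1. Sqle, Idi1 and Fdps were nonetheless lower there in range 4 than in range 1. Median depth in range 4 was 3709.5 UMIs per cell in resection 2 and 3316.5 in sham 2. The part of cluster makeup or depth in the drop was not tested.

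Secretory cells were intermediate. The summed level was 653, 659 and 686 scaled CPM in goblet-like cells of the sham libraries and 654 and 503 in those of resection 1 and 2. In Paneth-like cells it was 583, 586 and 356 in the sham libraries and 753 and 601 in the resection libraries. With doublets kept, the sham 3 value was 560, and sham 2 (621) lay above resection 2 (573), so the groups overlapped. Paneth-like sums are led by defensins and lysozyme, so their scaling factors (0.222 to 0.342) raise every other gene. Goblet-like sums held as few as 29 cells, and Lss had 4 to 8 UMIs in them.

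The surgery comparison asked whether these genes differ after resection. It was tested in crypt progenitor-like, immature enterocyte-like and enterocyte-like cells, and no gene of the 8 passed in any of these. Goblet-like and Paneth-like cells were not tested. In enterocyte-like cells 7 of 8 had a log2 fold change below 0, with a median of -0.38 against -0.02 over all 10357 genes tested. edgeR's quasi-likelihood test called 0 genes in total (0%) in this class, while 492 had an unadjusted p under 0.05. The 8 genes had adjusted p of 0.9983, and none was called under any alternative tried, including DESeq2, which called 66 genes.

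Sqle measured 118, 113 and 95.0 scaled CPM in the enterocyte-like cells of the sham libraries against 89.5 and 82.1 in those of the resection libraries. Lss was likewise lower in both resection libraries, at 7.82 and 9.77 against 11.2, 12.5 and 14.0. These 2 of 8 were the genes without overlap between groups, and 7.43% of all genes tested had both resection libraries below every sham library. Their log2 fold changes were -0.36 ± 0.25 (SE) and -0.53 ± 0.25, with unadjusted p of 0.1935 and 0.06548.

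For the other 6 the groups overlapped. Fdps had the largest estimate, -0.91 ± 0.46, but its sham values ran from 71.1 to 203 and its resection values were 56.6 and 80.0. Srebf2 had -0.45 ± 0.39, Idi1 -0.41 ± 0.28, Cyp51 -0.22 ± 0.29 and Hmgcs1 -0.21 ± 0.32. Insig1 alone had a positive estimate, 0.29 ± 0.42, with 122 scaled CPM in resection 1 and 56.0 in resection 2 around a sham range of 47.6 to 98.4. Without resection 1 its estimate was -0.36.

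**Figure D3:**
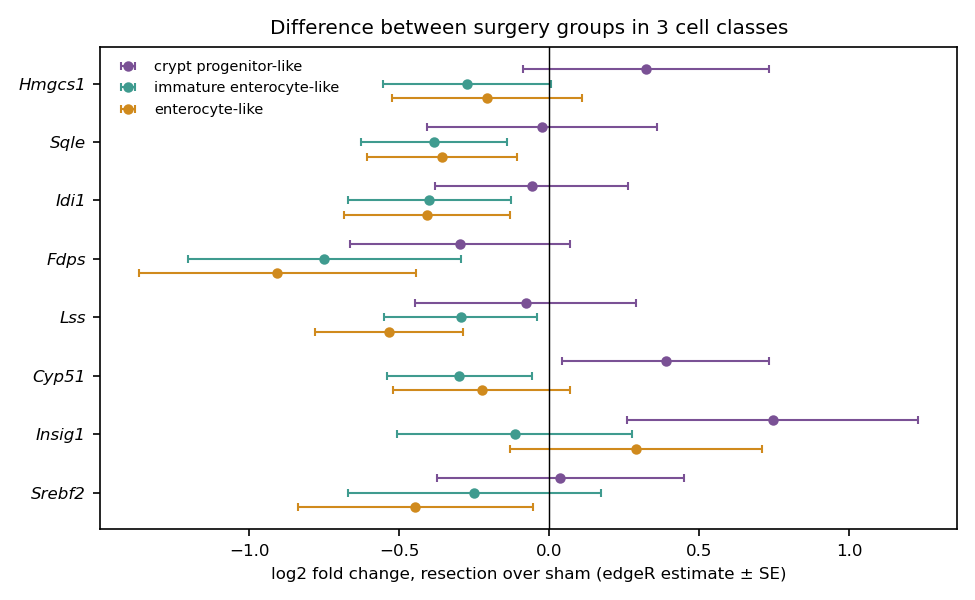
log2 fold change of resection over sham for each of the 8 genes (edgeR estimate, bars ± SE, linear axis) in 3 cell classes. Estimates for immature and enterocyte-like cells lie mostly left of 0, and those for crypt progenitor-like cells on both sides.

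Inside both sets of libraries the direction was shared by most genes. Resection 1 was below sham 1, and resection 2 below both sham 2 and sham 3, for 7 of 8 genes in enterocyte-like cells (all but Insig1), where 17.9% of all genes tested met this rule. For Sqle the log2 ratio was -0.40 in the first set and -0.34 in the second, and for Lss -0.52 and -0.44. For Fdps it was -0.33 and -0.95, for Srebf2 -0.75 and -0.35, and for Idi1 -0.22 and -0.66. Cyp51 gave -0.29 and -0.28, and Hmgcs1 -0.38 and -0.15. The sets differed over the score ranges. For the summed level of the 8 genes, the log2 ratio in the first set was -0.46 in range 1 and -0.01 in range 4. In the second set it was -0.06 and -1.19. The shared direction over the whole class is thus not a shared pattern over the ranges. Since ranges were cut within each library, these ratios do not compare cells of equal score. One library of each group makes up the first set, so the ratios of a single set carry no test. With the set of libraries as a term over all 5 libraries, edgeR gave unadjusted p of 0.01767 for Srebf2, 0.03484 for Idi1, 0.04033 for Lss and 0.04727 for Fdps, where 983 of 10357 genes had one under 0.05. Adjusted p of these 4 lay between 0.3589 and 0.5169, and none of the 8 was called. With range 4 left out of every library, an alternative added after its values were seen, the fold changes ran from -0.85 (Fdps) to 0.26 (Insig1).

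The largest cluster of the enterocyte-like class differed from library to library, also within a surgery group. Several clusters held cells of both groups. The largest cluster of sham 1 (95.5% of its enterocyte-like cells) was led by Gm26870, Gm10263 and Actb, that of sham 2 (59.2%) by H2-Aa and Cd74, and that of sham 3 (77.1%) by Ccl20 and Duoxa2. In resection 1 it was a cluster led by Lct, Fabp1 and Apoa4 (46.5%) and in resection 2 the one led by Ada (49.1%). Paneth cell markers, which can reach other droplets as free RNA, summed to 1295 to 6001 scaled CPM in the enterocyte-like cells of the sham libraries and to 2039 and 2236 in those of the resection libraries. All 6 were detected in each. T cell markers summed to 27.0 to 57.7 in sham and to 13.7 and 43.6 in resection libraries. Immature enterocyte markers (5 genes, all detected) summed to 477, 419 and 402 in the enterocyte-like cells of the sham libraries and to 250 and 265 in those of the resection libraries. Both resection libraries were below every sham library, as for Sqle and Lss, with log2 ratios of -0.93 and -0.63 inside the 2 sets. The part of these markers and clusters in the result was not tested.

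In immature enterocyte-like cells 8 of 8 estimates were below 0 (median -0.30, against -0.02 over 9807 genes), none called. edgeR called 0 genes there (0%), with 140 at an unadjusted p under 0.05, and DESeq2 called 2. Sqle measured 53.9, 46.4 and 40.9 scaled CPM in sham and 40.0 and 32.8 in resection libraries, and Idi1 62.6, 65.9 and 68.3 against 61.7 and 39.4. They were the 2 of 8 without overlap, beside 4.6% of all genes. Inside both sets 6 of 8 were lower (all but Fdps and Srebf2), against 15.2% of genes. With the set of libraries as a term, 5 of 8 had an unadjusted p under 0.05, with 493 of all genes, and none was called. Most of these cells came from a cluster led by Mt2 and Gsdmc4 in sham 2, sham 3 and resection 2, and from one led by Gm10263 and Dmbt1 in sham 1 and resection 1.

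In crypt progenitor-like cells the estimates were 4 above and 4 below 0, with a median of 0.01. They ran from -0.30 ± 0.37 (Fdps) to 0.74 ± 0.48 (Insig1). edgeR called 0 of 9773 genes (0%), with 160 at an unadjusted p under 0.05, and DESeq2 called 2. No gene of the 8 had both resection libraries below every sham library (3.83% of all genes did) and 0 of 8 were lower inside both sets (11.9% of all genes were). Hmgcs1, for instance, stood at 150 in resection 1 and 82.9 in resection 2, within or above the sham values of 128, 92.8 and 53.3.

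Whether the surgery effect differed between crypt progenitor-like and enterocyte-like cells was tested as an interaction. It called 6 of 10600 genes (0.0566%) and none of the 8. All 8 interaction estimates were above 0, meaning a resection effect more positive in the crypt class, with a median of 0.40 against -0.03 over all genes. Cyp51 (0.54 ± 0.25, unadjusted p = 0.04303, adjusted p = 0.6226) and Hmgcs1 (0.48 ± 0.22, unadjusted p = 0.0478, adjusted p = 0.6389) came nearest. A difference between the classes was therefore not shown.

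The neighbouring gene groups in enterocyte-like cells also gave no call in edgeR. Of the 15 other cholesterol synthesis genes, 12 estimates were below 0 (median -0.29). Those with the lowest p were Lbr (-0.70 ± 0.29), Acat2 (-0.50 ± 0.28), a thiolase that starts the pathway, and Mvd (-0.45 ± 0.30), the mevalonate diphosphate decarboxylase. Among SREBP processing and uptake genes 5 of 8 were below 0, and Tmem97 had -0.24 ± 0.23.

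Fatty acid synthesis genes split 3 above and 4 below 0. Scd2, a stearoyl-CoA desaturase, had -1.38 ± 0.54 (adjusted p 0.9801, from 5.084e-12 to 0.9999 over the alternatives), Elovl6 -0.71 ± 0.33 and Fasn -0.49 ± 0.31. The log2 ratios inside the sets were unequal, at -2.99 and -0.40 for Scd2 and -1.11 and -0.06 for Fasn. Genes of absorption, esterification and efflux, many of them targets of the oxysterol receptor LXR, had 6 of 8 estimates above 0, with a median of 0.58. Abca1, an efflux pump, had 0.82 ± 0.28, Abcg8, a partner in sterol export to the lumen, 0.66 ± 0.25, and Mylip, a ubiquitin ligase induced by LXR, 1.19 ± 0.45. Npc1l1 measured 226, 258 and 149 scaled CPM in sham and 412 and 341 in resection libraries, without overlap (0.82 ± 0.32). Unadjusted p lay between 0.02164 and 0.03764 for these 4, and adjusted p between 0.9362 and 0.9852, so none passed. Over the alternatives the adjusted p of Abca1 ran from 0.04018, under the threshold, to 0.9999, while the lowest for the other 3 was 0.05736 (Mylip).

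**Figure D4:**
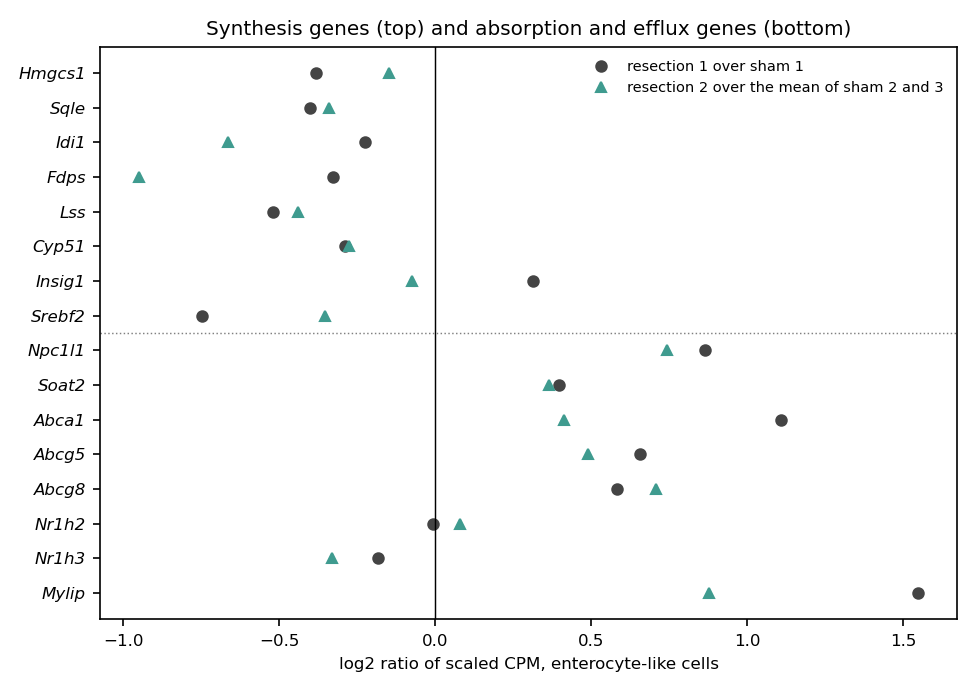
log2 ratio of scaled CPM in enterocyte-like cells (linear axis), resection 1 over sham 1 (circles) and resection 2 over the mean of sham 2 and 3 (triangles), for the 8 synthesis and control genes above the dotted line and 8 absorption, esterification, efflux and receptor genes below it. Both marks lie left of 0 for all upper genes but Insig1, and right of 0 for Npc1l1, Soat2, Abca1, Abcg5, Abcg8 and Mylip.

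How alike the 8 genes were was described over the 25 sums of 5 classes by 5 libraries, which share libraries and depth, so the correlations carry no p. On a log2(CPM + 1) scale Pearson's r between pairs of the 8 had a median of 0.44 and ran from -0.33 (Fdps with Srebf2) to 0.94 (Hmgcs1 with Cyp51). After each class mean was subtracted, the median was 0.39. The highest pair was still Hmgcs1 with Cyp51 (0.79) and the lowest Fdps with Insig1 (-0.63). Fdps was lower in sham 1 and resection 1 than in the other 3 libraries in enterocyte-like, immature and crypt progenitor-like cells, where Insig1 was higher, so this pair follows the 2 sets of libraries.

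Of 4301 other genes with a mean of at least 20 CPM, the one closest to the mean of the 8 over the 25 sums was Msmo1 (r = 0.91), the sterol C4-methyl oxidase of the same pathway. It was followed by Enpep (0.91), Naaladl1 (0.91), Slc44a4 (0.91), Tob1 (0.90) and Cab39 (0.90). Fdft1, squalene synthase, ranked 16. With class means subtracted, so that libraries and not classes set the order, Dsc2 led (0.80), and Armc8 (0.75), Tmed7 (0.75) and Msmo1 (0.74) were also among the closest.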

How the data were processed

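The deposited matrices, 1 for each library, hold unnormalized UMI counts that the authors made with Cell Ranger from 10x Chromium 3' (v2) libraries, per the labels, which give its version with a question mark. The submitters' processing notes name the builds mm10 and GRCm38, which are the same assembly. Positions and gene starts were taken from RefSeq on GRCm38.p6.

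Cells with at least 500 genes and at most 20% mitochondrial UMIs were kept, and 720 simulated-doublet neighbours (3.80%) were removed. Cells were clustered with leidenalg 0.10.2 (2000 variable genes, 30 components, resolution 1.0, no batch correction, listed genes left out). Of 14 clusters, 8 were enterocyte-like, named by the mean position of markers reaching 50 CPM, a scoring rule set after the data were seen. None of the enterocyte-like clusters had its own markers among its 10 leading genes. Stem and cycling markers peaked in 1 cluster and were joined. Counts were summed per library and class and tested with edgeR 4.0.16 (quasi-likelihood, TMM, filterByExpr, two-sided) in R 4.3.3, with DESeq2 1.42.0 as an alternative. Scaled CPM used TMM factors found jointly over all sums. The scripts were tested on simulated data.

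The 8 genes, the gene lists (15, 8, 8 and 10 others) and the tests were chosen with earlier results of these data known. Named genes are the 8, the 3 of each list with the lowest p in the enterocyte-like surgery comparison and in the class comparison, and those most like the mean of the 8. Scap, Mbtps2 and Fdft1 were also named after their values were seen. Some genes that the rule names are not reported here. The lists share no cell type markers with the classes tested. The set of libraries was seen in the data and is no label.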

Additional observations from a re-analysis of the deposited data

How the results depend on the processing

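None of the 8 genes was called in a surgery comparison or in the interaction under any alternative run. Counts of all genes called moved: in enterocyte-like cells from 0 to 66 (DESeq2), 206 (no filter on low counts), 25 (set of libraries as a term) and 431 (replicate block), and leaving out 1 library gave 0 to 3; in immature cells from 0 to 2 (DESeq2), 4 (set term) and 134 (replicate block); in crypt progenitor-like cells from 0 to 2 (DESeq2), 19 (no filter), 2 (set term) and 70 (replicate block). The interaction moved from 6 to 185 (no filter) and 27 (doublets kept), and to 0 to 69 when 1 library was left out (0 without sham 3, 2 without sham 1, 3 without resection 1, 31 without sham 2, 69 without resection 2). The causes were not tested. Replicate numbers 1 and 2 occur in both groups, and no label says that they mark shared mice or days. Deviations from the group means correlated in same-numbered libraries (r = 0.74 and 0.29 over 4221 genes in enterocyte-like cells). They also did so in sham 3 and resection 2, which differ in number (0.69). The deviations of the 2 resection libraries mirror each other exactly, and those of the 3 sham libraries sum to 0. These r are thus tied by construction and do not show that the numbers pair the libraries. Sham 3 has no partner, so the replicate block compares 2 pairs.

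Directions reversed mainly in crypt progenitor-like cells, also for genes with estimates well away from 0 such as Insig1 (0.74). With 1 library left out, the log2 fold changes there ran from -0.14 to 0.68 (Hmgcs1), -0.43 to 0.29 (Sqle), -0.53 to 0.30 (Idi1), -0.43 to 0.23 (Lss), -0.012 to 0.71 (Cyp51), -0.17 to 1.30 (Insig1) and -0.50 to 0.43 (Srebf2). For these 7 genes each negative end came without resection 1 and each positive end without resection 2. The set term gave -0.17 for Srebf2, the replicate block -0.32 for Srebf2 and -0.018 for Hmgcs1, no filter 0.0071 for Sqle, and scaling of genes within libraries 0.012 for Lss and -0.060 for Srebf2. In immature cells, with 1 library left out, Insig1 ran from -0.80 to 0.35 and Srebf2 from -0.51 to 0.27 (positive without sham 1), and scaling within libraries gave 0.024 for Insig1. In enterocyte-like cells Insig1 gave -0.36 without resection 1 (0.74 without resection 2) and -0.019 with the replicate block. Between crypt and enterocyte-like cells no gene of the 8 changed sign under the alternatives run, and DESeq2 put the median of all genes at 0.49, against -0.02. Of 135 summed levels recomputed under other clusterings, 132 moved by less than the SD between libraries. The rest were sums of sham 3. With genes scaled within libraries, its immature cells went from 510 to 385, below resection 1 (457), and its goblet-like cells from 686 to 588. With doublets kept, its Paneth-like cells went from 356 to 560. Depth limits Lss most.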
